A study of Mus musculus with 58 samples.

Results

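Glucocorticoid hormone (corticosterone in the mouse) acts on brain cells through a pair of nuclear receptors, and the 10 genes described here are these receptors and the genes most often used to read their activity in brain tissue. They were found as the rows of the deposited value table whose platform gene symbol is one of 10 names, and each name matched 1 probe set, so that 10 of 17216 named genes are described. The receptors are Nr3c1, the glucocorticoid receptor, and Nr3c2, the mineralocorticoid receptor. The response genes are Fkbp5, Sgk1, Tsc22d3, Zbtb16, Plin4, Hif3a, Mt1 and Mt2.

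The study measured RNA in 2 brain regions, the hippocampus and a cortical sample that the sample labels call frontal cortex and the dissection protocol prefrontal. It compared transgenic (TG) with wild-type (WT) mice on a C57BL/6J background, males and females at 8 months of age, on 58 Affymetrix arrays, 1 per mouse and region. The series names the model as APP/PS1, mice that carry mutant human amyloid precursor protein and presenilin 1 transgenes and deposit amyloid in the brain; the promoter that drives the transgenes, and any agent or treatment beyond genotype, are not given in the sources used here. The frontal cortex groups hold 8 male WT, 8 male TG, 6 female WT and 6 female TG arrays, and the hippocampus groups hold 8, 8, 7 and 7. Both regions were measured in 28 of the 30 mice. Males carry mouse numbers 38 to 53 and females numbers 1 to 14, so that sex and cohort cannot be told apart.

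Both receptors sit in the cytoplasm with heat shock protein chaperones until hormone binds, and then move to the nucleus and switch genes on or off, often from paired half-sites called glucocorticoid response elements. Nr3c2 binds the hormone more tightly and is known for its high level in hippocampal neurons, while Nr3c1 is found in nearly all brain cells. Fkbp5 encodes a chaperone partner that lowers the affinity of the receptor for hormone and is itself induced by it. Sgk1 (a serine/threonine kinase), Tsc22d3 (the leucine zipper protein GILZ), Zbtb16 (a zinc finger transcription factor), Plin4 (a lipid droplet coat protein) and Hif3a (a hypoxia-inducible factor subunit) are known to rise after glucocorticoid exposure. Mt1 and Mt2 encode metallothioneins, small proteins that bind zinc and copper. They respond to glucocorticoids, to metals through metal response elements, and to inflammatory signals, and in the brain are mainly products of astrocytes.

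Promoter windows are shown for Mt1, Mt2 and Sgk1 to show what response elements look like in sequence. The Sgk1 window was picked because it holds a match, so that match is an example and not a finding. No result here tests whether an element is used. The sequences are from RefSeq on build GRCm38.p6, each from 250 bases before to 50 bases after an annotated start. Of the 10 members, 8 had an entry, with 15 windows in all, and none is shown for Nr3c1 and Zbtb16. Sgk1 has 6 annotated starts, and the one printed lies at chr10:21993640-21993939 on the plus strand, inside the gene (chromosome 10, bases 21882184 to 21999903). Mt2 (gene at chromosome 8, 94172618 to 94173567) and Mt1 (94178883 to 94180327) are neighbours on the plus strand, with windows at chr8:94172368-94172667 and chr8:94178839-94179138. Capitals mark a palindrome in Sgk1 (AGAACA and TGTTCT, with any 3 bases between them, a full glucocorticoid response element), the metal response element TGCACNC or TGCGCNC on either strand in Mt1 and Mt2, and in Mt1 also 1 match to a looser form of the palindrome (GNACA and TGTNC, with any 3 bases between them).
Sgk1: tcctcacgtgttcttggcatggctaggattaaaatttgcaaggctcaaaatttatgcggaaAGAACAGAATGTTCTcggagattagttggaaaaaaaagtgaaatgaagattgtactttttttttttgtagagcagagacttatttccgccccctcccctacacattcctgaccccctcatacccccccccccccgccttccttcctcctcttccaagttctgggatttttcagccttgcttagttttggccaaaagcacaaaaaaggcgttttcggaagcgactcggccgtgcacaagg
Mt2: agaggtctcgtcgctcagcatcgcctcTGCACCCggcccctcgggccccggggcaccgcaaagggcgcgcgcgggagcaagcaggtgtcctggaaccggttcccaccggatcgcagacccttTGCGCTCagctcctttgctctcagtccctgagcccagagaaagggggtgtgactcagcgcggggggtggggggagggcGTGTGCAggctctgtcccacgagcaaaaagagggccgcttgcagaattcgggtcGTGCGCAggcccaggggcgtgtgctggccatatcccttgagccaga
Mt1: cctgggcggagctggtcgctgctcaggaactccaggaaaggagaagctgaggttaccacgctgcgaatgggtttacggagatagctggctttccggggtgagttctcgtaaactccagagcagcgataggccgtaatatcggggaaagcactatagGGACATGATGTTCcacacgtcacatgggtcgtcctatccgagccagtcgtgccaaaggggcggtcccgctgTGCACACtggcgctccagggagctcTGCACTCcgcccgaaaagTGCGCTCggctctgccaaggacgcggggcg
The element in Sgk1 lies at -189 to -175 from the start, and the full palindrome occurs in 3 of 32851 promoter windows of the same length in the RefSeq table (0.00913%). The looser form, which the palindrome also meets, occurs in 156 windows (0.475%), among them that of Mt1, at -94 to -82 from its start. Of the 15 windows of members, only these windows of Sgk1 and Mt1 held it. At least 1 metal response element match was common, in 25.7% of windows, while at least 3 were found in 1.97%. Mt2 held 4 matches and Mt1 held 3, with no overlap between matches. A match describes letters only, and none in a window of this length says nothing about elements elsewhere, such as within introns.

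The labels were checked before the members were read. Cst7, a gene of plaque-associated microglia, and Thy1 separated TG from WT arrays without overlap, with 1 exception: the hippocampus array labelled TG of female mouse 7 had Thy1 at 10.92 and Cst7 at 3.21, within the WT ranges of 10.61 to 10.997 and 3.07 to 3.45. App was not higher in TG in any comparison, and in male frontal cortex it was lower (-0.18, SE 0.05, adjusted p = 0.00439). A further array, the hippocampus of female TG mouse 4, had the lowest mean of 9 hippocampal field markers, 5.24 against a group median of 7.19. Female TG differences in the hippocampus are therefore given with and without these arrays for the members the text describes there. Ttr, the main transcript of choroid plexus, ranged from 6.58 to 13.58 among hippocampus arrays. Choroid plexus content was uneven between genotypes in males. The mean of its markers had a median of 7.15 in TG and 4.18 in WT male hippocampus, with overlapping ranges. In female hippocampus the medians were 4.29 and 4.20. Values are RMA values on the log2 scale, differences are TG minus WT on that scale unless another contrast is named, and p-values are from limma, two-sided and adjusted by the Benjamini-Hochberg method over 17216 genes. The number of arrays limits the precision, and no value of one probe set was set against that of another.

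Between regions, the mineralocorticoid receptor had the largest difference of the 10 members. In WT males Nr3c2 ran from 6.89 to 7.37 (median 7.20) in the frontal cortex and from 9.13 to 9.67 (median 9.34) in the hippocampus. WT females gave 7.08 to 7.42 (median 7.26) and 9.27 to 9.93 (median 9.51). No hippocampus array of any group overlapped the frontal cortex arrays, the lowest being mouse 4 at 8.07. The hippocampus exceeded the frontal cortex by 2.22 log2 units (SE 0.12, adjusted p = 5.54e-23) in WT males and by 2.28 (SE 0.13, adjusted p = 3.58e-21) in WT females. Nr3c1 went the other way: WT males lay between 6.33 and 6.72 (median 6.62) in the frontal cortex and between 6.15 and 6.42 (median 6.26) in the hippocampus. Its hippocampal level was lower by 0.33 in males (log2 difference -0.33, SE 0.06, adjusted p = 4.12e-06). In females the difference was -0.17 (SE 0.06, adjusted p = 0.0399), with adjusted p = 0.055 when array medians were equalized and 0.058 when the choroid plexus marker mean was added as a covariate.

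Among the response genes, Fkbp5 stood highest above the frontal cortex, by 0.97 (SE 0.14, adjusted p = 1.24e-07) in WT males and 1.01 (SE 0.16, adjusted p = 6.75e-07) in WT females. WT females gave 5.78 to 6.41 (median 5.93) in the frontal cortex and 6.82 to 7.29 (median 6.91) in the hippocampus, without overlap. WT males overlapped slightly, since the lowest hippocampus value, 6.57 in mouse 39, fell below the highest frontal cortex value of 6.71. Mt2 was higher in the hippocampus by 0.70 (SE 0.12) and 0.66 (SE 0.13), Mt1 by 0.26 (SE 0.06) and 0.35 (SE 0.07), and Zbtb16 by 0.41 (SE 0.10) and 0.55 (SE 0.11), in males and females respectively, each past the threshold. Sgk1 passed in WT males (0.53, SE 0.20, adjusted p = 0.0418) and missed in WT females (0.58, SE 0.23, adjusted p = 0.0511). These fits take the 2 arrays of a mouse as independent. Over 11 other settings the male value of Sgk1 ran from 0.33 to 0.56. Its adjusted p ran from 1.4e-05 to 0.201, the highest with the choroid plexus covariate. The female value passed in 7 other settings. Its adjusted p was 0.0478 with equal array medians, 0.0257 with the mouse as a random block and 1.97e-06 with the mouse as a fixed block (0.70). Tsc22d3, Plin4 and Hif3a did not pass in either sex, with differences from 0.01 to 0.30. In all, 6 members were higher and 1 was lower in the hippocampus of WT males, where 32.7% of all named genes passed (17.2% higher and 15.5% lower), and 5 were higher and 1 was lower in WT females, where 26.6% passed (12.8% and 13.7%). Groups without overlap, the hippocampus above, were found for Nr3c2 in males (5.41% of genes) and for Nr3c2, Fkbp5, Zbtb16, Mt1 and Mt2 in females (7.11%). The median difference over the members was 0.35 and 0.45, beside -0.01 over all genes in each sex. Cell composition moved with region as well: 9 of 9 oligodendrocyte markers were higher in the hippocampus, with medians of 1.02 in males and 1.502 in females, and 8 of 9 hippocampal field markers were higher. Their part in the differences of the members was not tested.

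**Figure D1:**
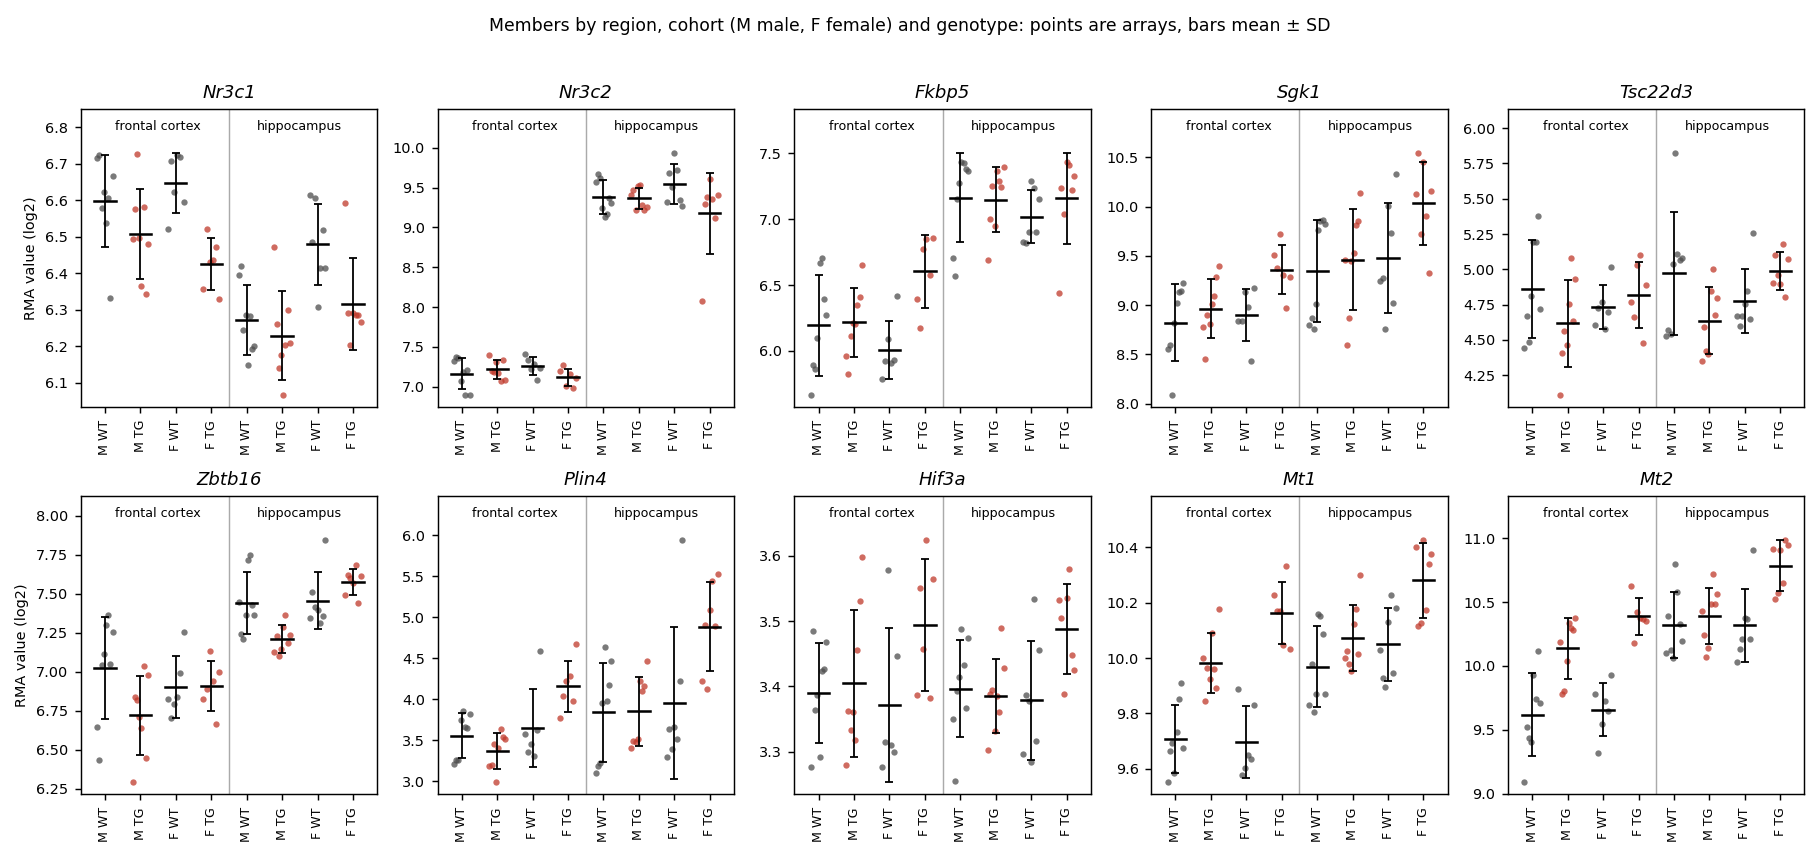
RMA values (log2) of the 10 members in all 58 arrays, 1 panel per gene with its own axis, grouped by region, cohort and genotype; points are arrays, grey for WT and red for TG, and bars are mean ± SD. Nr3c2 separates the regions completely, Mt1 and Mt2 separate genotypes in female frontal cortex, and the spread within groups is wide for Sgk1 and Plin4.

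With genotype, the metallothioneins rose in the frontal cortex of both sexes. Mt1 lay between 9.55 and 9.91 (median 9.68) in WT males and between 9.84 and 10.18 (median 9.96) in TG males. The TG range overlapped the WT range only through WT mice 49 and 51. The rise was 0.27 log2 units (SE 0.06, adjusted p = 0.0015), or 1.21-fold. In females the WT arrays lay between 9.58 and 9.89 (median 9.64) and the TG arrays between 10.03 and 10.33 (median 10.17). These groups did not overlap, and the rise was 0.47 (SE 0.07, adjusted p = 1.41e-05), or 1.38-fold.

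Mt2, whose gene lies beside that of Mt1, moved the same way. WT males ran from 9.09 to 10.12 (median 9.61) and TG males from 9.78 to 10.38 (median 10.23), with overlap at WT mice 48 and 51. The difference was 0.52 (SE 0.12, adjusted p = 0.00155), or 1.43-fold. Female WT arrays ran from 9.32 to 9.93 (median 9.69) and female TG arrays from 10.18 to 10.62 (median 10.37), without overlap. Here the rise was 0.73 (SE 0.13, adjusted p = 0.000203), or 1.66-fold. The arrays measured dissected tissue, so more cells of a type and more RNA per cell cannot be told apart.

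In male frontal cortex Mt1 and Mt2 were the only members past the threshold, 2 higher and 0 lower of 10, where 20.5% of all named genes passed, 8.8% as higher and 11.7% as lower. Another, Zbtb16, made 3 with an unadjusted p under 0.05, as had 31.6% of genes. In female frontal cortex 4 members were higher and 1 was lower, where 18.9% of all genes passed, 8.75% as higher and 10.2% as lower, and 6 had an unadjusted p under 0.05, as had 30.7% of genes. Groups without overlap, TG above WT, were found for 2 members in females, as for 4.5% of all genes, and for none in males (3.08%). None lay wholly below WT in either sex (0.993% of genes in males and 4.22% in females). The median difference over the 10 members was 0.02 in males and 0.29 in females, against -0.02 and -0.01 over all genes.

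The other 3 calls in female frontal cortex were Fkbp5, Plin4 and Nr3c1. Fkbp5 ran from 5.78 to 6.41 (median 5.93) in WT and from 6.17 to 6.86 (median 6.68) in TG females. Only WT mouse 14, at 6.41, and TG mice 8 and 4, at 6.17 and 6.39, lay in the overlap. The rise was 0.60 (SE 0.16, adjusted p = 0.00831), or 1.51-fold. Male WT arrays spanned 5.66 to 6.71 (median 6.19) and male TG arrays 5.83 to 6.65 (median 6.21), a difference of 0.02 (95% interval -0.26 to 0.30, adjusted p = 0.944).

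Plin4 ran from 3.31 to 4.59 (median 3.51) in WT females and from 3.77 to 4.67 (median 4.13) in TG females. Apart from WT mouse 14, at 4.59, every WT array lay at or below 3.62 and under all TG arrays. The rise was 0.51 (SE 0.17, adjusted p = 0.0354), and it was lost in 4 other settings of the scaling or of the arrays fitted, with adjusted p = 0.0564 after equalizing array medians and 0.217 in the fit over all 8 groups. Plin4 lay in the dimmer part of the arrays, above 38.7% of named genes in mean value, where a log2 difference understates a change. Nr3c1, the glucocorticoid receptor, was the member that fell: WT females lay between 6.52 and 6.72 (median 6.66) and TG females between 6.33 and 6.52 (median 6.43). The groups met at 6.52, the highest TG and the lowest WT value. The difference was -0.22 (SE 0.07, adjusted p = 0.0153), or 1.17-fold lower. In males it was -0.09 (SE 0.06, adjusted p = 0.288).

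Sgk1 in female frontal cortex stood just outside the threshold. WT arrays ran from 8.43 to 9.17 (median 8.91) and TG arrays from 8.97 to 9.72 (median 9.34), a difference of 0.46 (SE 0.17, adjusted p = 0.0541). Its p fell below 0.05 in 4 other settings, among them the brighter part of the genes (adjusted p = 0.0362) and array weights (0.0281). Zbtb16 in males was similar in standing: WT arrays spanned 6.44 to 7.36 and TG arrays 6.29 to 7.04, a difference of -0.31 (SE 0.12, adjusted p = 0.064). With equal array medians that difference had an adjusted p of 0.026. Nr3c2, Tsc22d3 and Hif3a did not pass in the frontal cortex of either sex, with differences from -0.24 (Tsc22d3 in males, adjusted p = 0.21) to 0.12 (Hif3a in females, adjusted p = 0.184). Hif3a, a target in several other tissues, had a mean of 3.41, close to the 25th percentile of the arrays (3.26 to 3.38), and differed by at most 0.12 between genotypes.

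In the hippocampus few members passed. None passed in males, where 1.3% of named genes did, 1.04% as higher, and 2 members had an unadjusted p under 0.05, as had 13.6% of genes. These were Zbtb16, at -0.23 (SE 0.07, adjusted p = 0.122), and Tsc22d3, at -0.34 (SE 0.13, adjusted p = 0.237). The male TG arrays here also had the higher choroid plexus marker median, given above. In females 1 member passed, where 2.47% of genes did, 1.54% as higher, and 7 had an unadjusted p under 0.05, as had 13.9% of genes. That was Mt2, from 10.03 to 10.90 (median 10.21) in WT and from 10.52 to 10.98 (median 10.91) in TG arrays, a rise of 0.47 (SE 0.12, adjusted p = 0.0347). WT mouse 14 was the 1 WT array inside the TG range.

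Without the array labelled TG of mouse 7, Mt2 rose by 0.51 (adjusted p = 0.0185) and Mt1 passed as well, by 0.26 (adjusted p = 0.0433, against 0.23 and 0.0803 with it). Without mouse 4, Mt2 was at 0.44 (adjusted p = 0.0628) and Nr3c1 passed as lower, at -0.21 (adjusted p = 0.0484, against -0.16 and 0.186 with it). The female hippocampus therefore held between 0 and 2 called members when single arrays were left out. Plin4 had the widest difference of any member, 0.93 (SE 0.32, 95% interval 0.28 to 1.58), with an adjusted p of 0.13. WT females ran from 3.30 to 5.94 (median 3.64) and TG females from 4.12 to 5.52 (median 4.90). Mouse 14 alone, at 5.94, lay above all TG arrays, and without it the difference was 1.26 and passed. It was 1.04 (adjusted p = 0.093) without mouse 4 and 0.93 (adjusted p = 0.147) without mouse 7. Sgk1 differed by 0.55 (SE 0.25, adjusted p = 0.31), by 0.54 without mouse 4 and by 0.47 without mouse 7. For Nr3c2 the difference of -0.37 (SE 0.15, adjusted p = 0.243) shrank to -0.18 (SE 0.10, adjusted p = 0.47) without mouse 4 and was -0.38 without mouse 7. That of Fkbp5 grew from 0.14 (adjusted p = 0.746) to 0.26 (SE 0.13, adjusted p = 0.39) without mouse 4 and was 0.13 without mouse 7. Tsc22d3, Zbtb16 and Hif3a did not pass with or without either array.

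**Figure D2:**
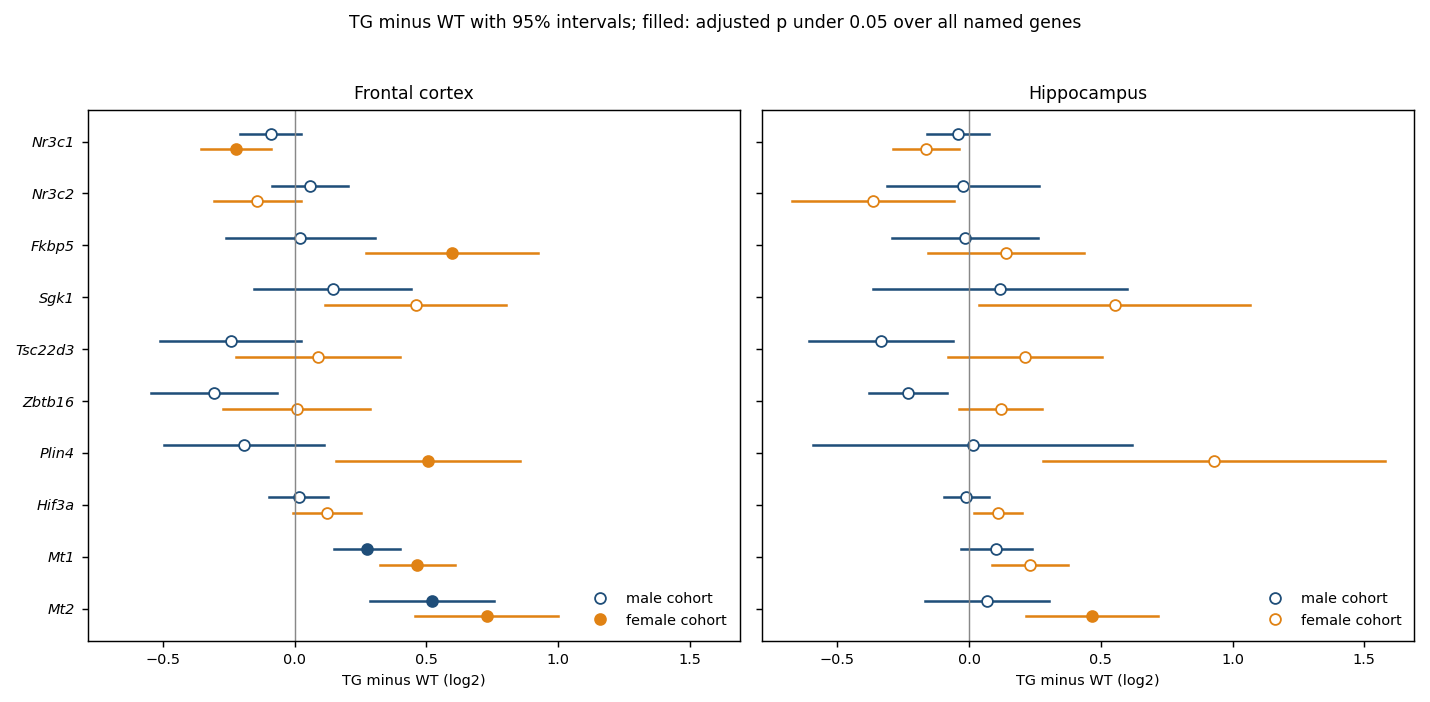
TG minus WT (log2, limma estimate) for each member with its 95% interval, frontal cortex at left and hippocampus at right, blue for males and orange for females; filled points have an adjusted p under 0.05 over all named genes. Mt1 and Mt2 are filled in both sexes in the frontal cortex, Fkbp5, Plin4 and Nr3c1 in females there, and Mt2 in the female hippocampus.

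The differences between the sexes in the TG effect were tested themselves, and none passed. In the frontal cortex 0 of 17216 genes passed and 6.56% had an unadjusted p under 0.05; among the members these were 3, Plin4 (0.70, SE 0.23, adjusted p = 0.712), Fkbp5 (0.57, SE 0.21, adjusted p = 0.718) and Mt1 (0.19, SE 0.09, adjusted p = 0.757). In the hippocampus 0 genes passed and 4.89% had an unadjusted p under 0.05; the members were 4, Plin4 (0.92, SE 0.43), Tsc22d3 (0.55, SE 0.20), Mt2 (0.40, SE 0.17) and Zbtb16 (0.35, SE 0.11), with adjusted p from 0.975 to 0.989. In all 7 the female difference was the higher one. WT females did not differ from WT males beyond the threshold for any member, in the frontal cortex (0.157% of genes passed) or the hippocampus (1.02%). The closest was Nr3c1 in the hippocampus, higher in females by 0.21 (SE 0.06, adjusted p = 0.0796). It passed in 3 alternatives, with adjusted p from 0.0107 to 0.0461.

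No member's TG effect differed between regions past the threshold, where 1.66% of genes passed in males and 1.01% in females. The mouse as a fixed replicate block, which compares the regions within each mouse, changed that for 2 members. Mt2 in males had a smaller TG effect in the hippocampus, by -0.45 in both fits, with adjusted p = 0.0066 under the block and 0.158 without it. Fkbp5 in females differed by -0.49 (adjusted p = 0.0314) under the block and by -0.46 (adjusted p = 0.361) without it. Under the same block the hippocampus of WT females was also higher for Sgk1 (0.70, adjusted p = 1.97e-06) and Plin4 (0.39, adjusted p = 0.0468). Without the block the Plin4 difference was 0.30, and it was -0.029 when the hippocampus array of mouse 14 was left out. That fit kept the high frontal cortex array of mouse 14 (4.59), so it does not check the block result. The block fit was not repeated without this mouse.

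Astrocyte markers moved with genotype in the frontal cortex of both sexes, as the metallothioneins did. In the frontal cortex 8 of 11 were higher in male TG and 10 of 11 in female TG, and their mean ran from 8.05 to 8.37 in WT males against 8.49 to 8.77 in TG males, and from 8.13 to 8.42 in WT females against 8.50 to 9.0 in TG females. Aqp4, the astrocyte water channel, rose by 1.02 (SE 0.13) and 1.09 (SE 0.15). In the hippocampus 0 of 11 passed in males and 1 of 11 in females, where Mt2 was called. With the mean of these markers as a covariate, no member passed in the frontal cortex, Mt2 standing at 0.23 (SE 0.16) in males and 0.37 (SE 0.19) in females and Fkbp5 in females at 0.56 (SE 0.26). In female hippocampus the same covariate ended the call of Mt2 (0.24, SE 0.12, adjusted p = 0.53) and Nr3c1 passed as lower (-0.28, SE 0.06, adjusted p = 0.0288). That covariate itself separates TG from WT frontal cortex arrays without overlap. The loss of calls there therefore cannot tell a part of astrocytes from that of genotype. Microglia markers rose in 9 of 9 cases in the frontal cortex and in 7 of 9 in the hippocampus, in each sex; 3 of 8 neuron markers fell in male and 5 of 8 in female frontal cortex. Endothelial markers rose in 4 of 9 cases in male and 1 of 9 in female frontal cortex, and pericyte markers in 4 of 6 and 2 of 6. Over all genes 8.8% passed as higher and 11.7% as lower in male frontal cortex, and 8.75% and 10.2% in female. The female endothelial count is near that share. In the hippocampus 1.04% of all genes passed as higher in males and 1.54% in females. The part of the cell types named here in the members' changes was not tested.

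Several response genes varied widely between mice of one group. The SD within groups was 0.31 in the frontal cortex and 0.51 in the hippocampus for Sgk1, and 0.32 and 0.64 for Plin4, against medians of 0.144 and 0.136 over all named genes. Plin4 exceeded 97.4% and 99.6% of genes in this spread, Sgk1 97.2% and 99.1%, and Fkbp5 96.5% and 95.1%. Nr3c1 varied less than most genes, with SDs of 0.11 in each region.

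This spread was shared by the 2 regions of a mouse. Deviations from the group mean in the frontal cortex and in the hippocampus, over 28 mice, correlated with a Pearson r of 0.90 for Plin4, 0.89 for Sgk1, 0.75 for Tsc22d3, 0.71 for Fkbp5, 0.65 for Mt2, 0.58 for Zbtb16 and 0.53 for Mt1. Spearman's rho was 0.82, 0.89, 0.77, 0.77, 0.67, 0.50 and 0.51 in the same order. The median r over all named genes was 0.10, and 4.97% of genes reached 0.5, as 7 of the 10 members did. For Plin4 and Sgk1 0.0349% and 0.0407% of genes were at least as high. The receptors and Hif3a lay in the bulk of genes, with r of 0.16 for Nr3c2, 0.05 for Hif3a and 0.03 for Nr3c1. The points are mice whose 2 tissue samples share an animal, a dissection and any handling common to both, and the values are a description.

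**Figure D3:**
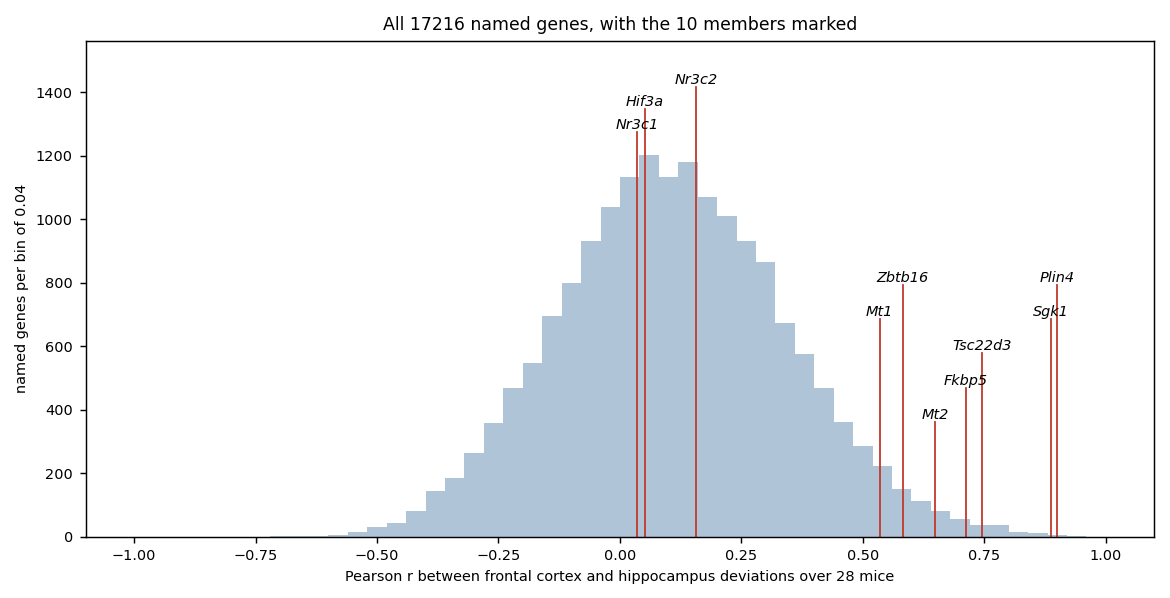
Distribution over all 17216 named genes of the Pearson r between the frontal cortex and hippocampus deviations of 28 mice (x axis), as genes per bin (y axis), with red lines at the 10 members. Most genes lie around 0.10, while Plin4, Sgk1, Tsc22d3 and Fkbp5 lie above 0.7, in the upper tail.

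For Plin4, Sgk1, Tsc22d3 and Fkbp5 the relation was present in each sex and without the most extreme mice. Leaving out the 2 mice farthest from the median in the frontal cortex gave 0.83 for Plin4 (without mice 12 and 14), 0.89 for Sgk1, 0.76 for Tsc22d3 and 0.66 for Fkbp5. For Fkbp5 r was 0.77 in 16 males and 0.62 in 12 females, for Sgk1 0.89 and 0.89, for Plin4 0.88 and 0.91, and for Tsc22d3 0.77 and 0.66. It was present in 14 WT and 14 TG mice apart, for Sgk1 at 0.89 and 0.88 and for Plin4 at 0.96 and 0.77. Mt1 was less even, with 0.75 in males and 0.24 in females. Nr3c2 gave 0.62 in males and -0.16 in females, where it changed sign and was 0.39 over all mice without mouse 4.

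**Figure D4:**
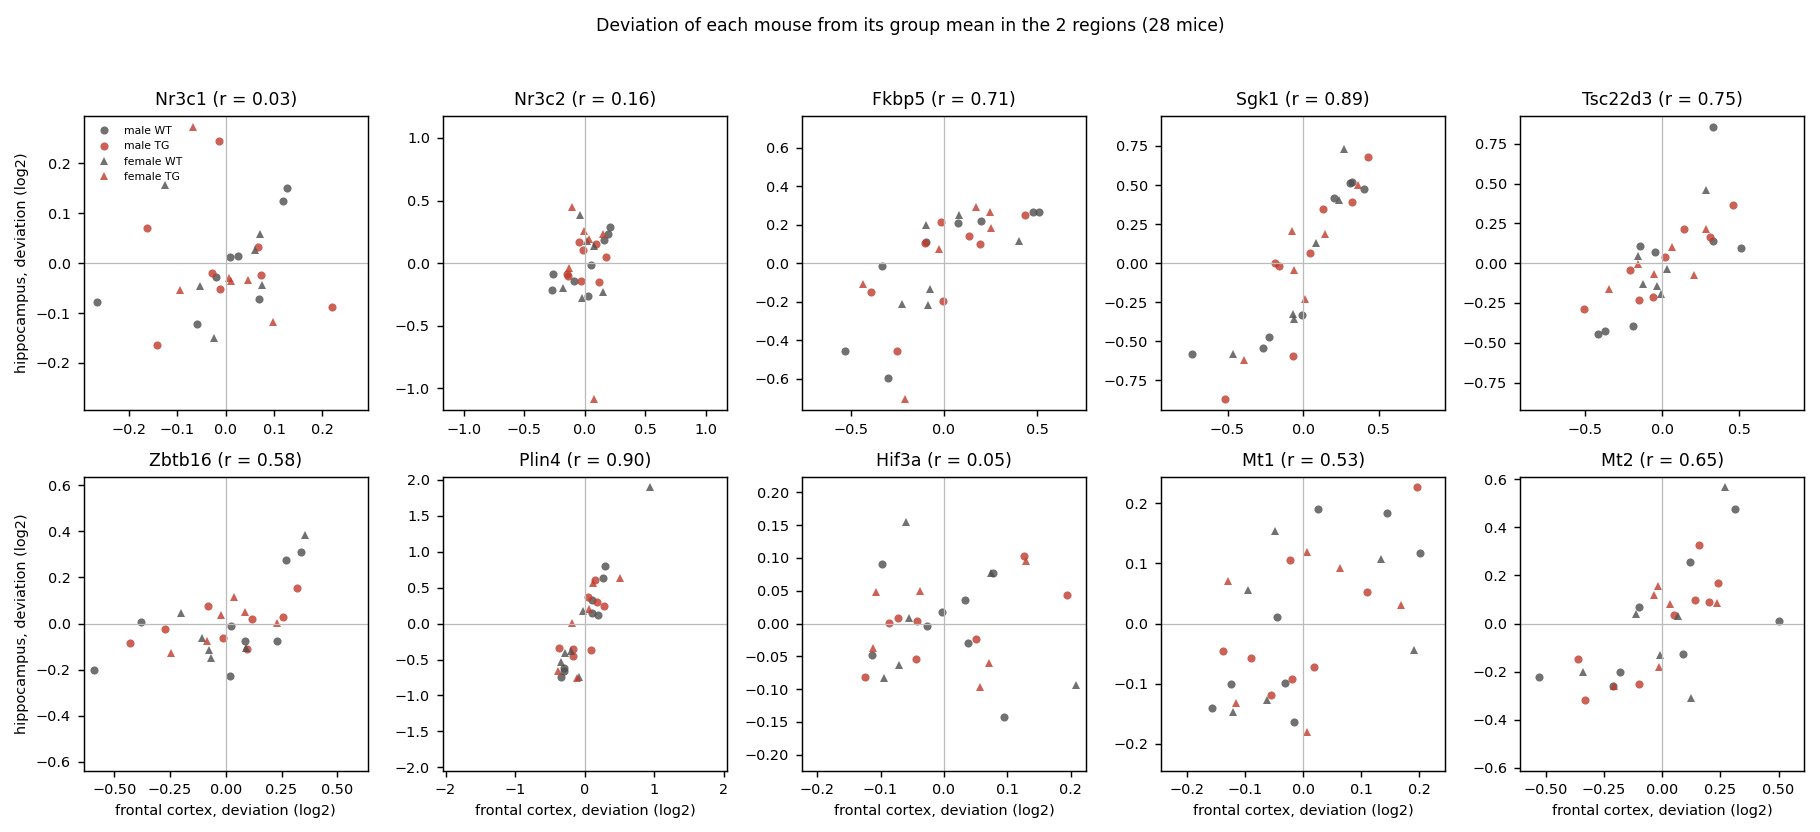
Deviation of each of 28 mice from its group mean in the frontal cortex (x axis, log2) and the hippocampus (y axis, log2), 1 panel per member on its own scale; circles are males, triangles females, grey WT and red TG, with Pearson r in each title. Plin4 and Sgk1 follow a diagonal in both sexes and genotypes, and Nr3c1 and Hif3a form a cloud.

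Which mice were low or high can be read from the values. In male WT frontal cortex, Sgk1 was lowest in mice 42, 38 and 39 (8.08, 8.55 and 8.59) and 8.81 or more in the other 5. In the hippocampus of the same group the same 3 mice were lowest, at 8.76, 8.80 and 8.87, and 4 of the other 5 lay between 9.76 and 9.86. Plin4 repeated this, with mice 38, 39 and 42 at 3.22, 3.26 and 3.26 in the frontal cortex and 3.11, 3.19 and 3.22 in the hippocampus, where the other 5 were between 3.96 and 4.64. In mice 38, 39 and 42 Plin4 thus lay at or below the 25th percentile of the arrays (3.26 to 3.38), near background. These 3 mice were thus the lowest of their group for both genes in both regions; for Plin4 a gap set them apart, while hippocampal Sgk1 of mouse 47, at 9.01, lay nearer to theirs than to the next, 9.76.

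Among TG males, mice 40, 41, 43 and 44 had the lowest mean of Fkbp5, Sgk1, Tsc22d3, Zbtb16 and Plin4 in both regions, 6.18 to 6.29 in the hippocampus against 6.62 to 6.81 in mice 45, 46, 50 and 53. In the frontal cortex no gap divided them, since mouse 43 at 5.97 was followed by mouse 45 at 6.00 in a range from 5.67 to 6.29. The lower males of each genotype carry numbers up to 44 and the higher ones numbers from 45, a division seen only after the values were. What the numbers stand for is not given in the labels. With mouse number as a covariate, Mt1 and Mt2 passed in the frontal cortex of both sexes, and Zbtb16 passed as lower in male frontal cortex (-0.29, adjusted p = 0.0288). Female WT mouse 14 stood high in both regions, with Plin4 at 4.59 against 3.31 to 3.62 in the other WT frontal cortex arrays and Sgk1 at 10.33, the highest WT hippocampus value.

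**Figure D5:**
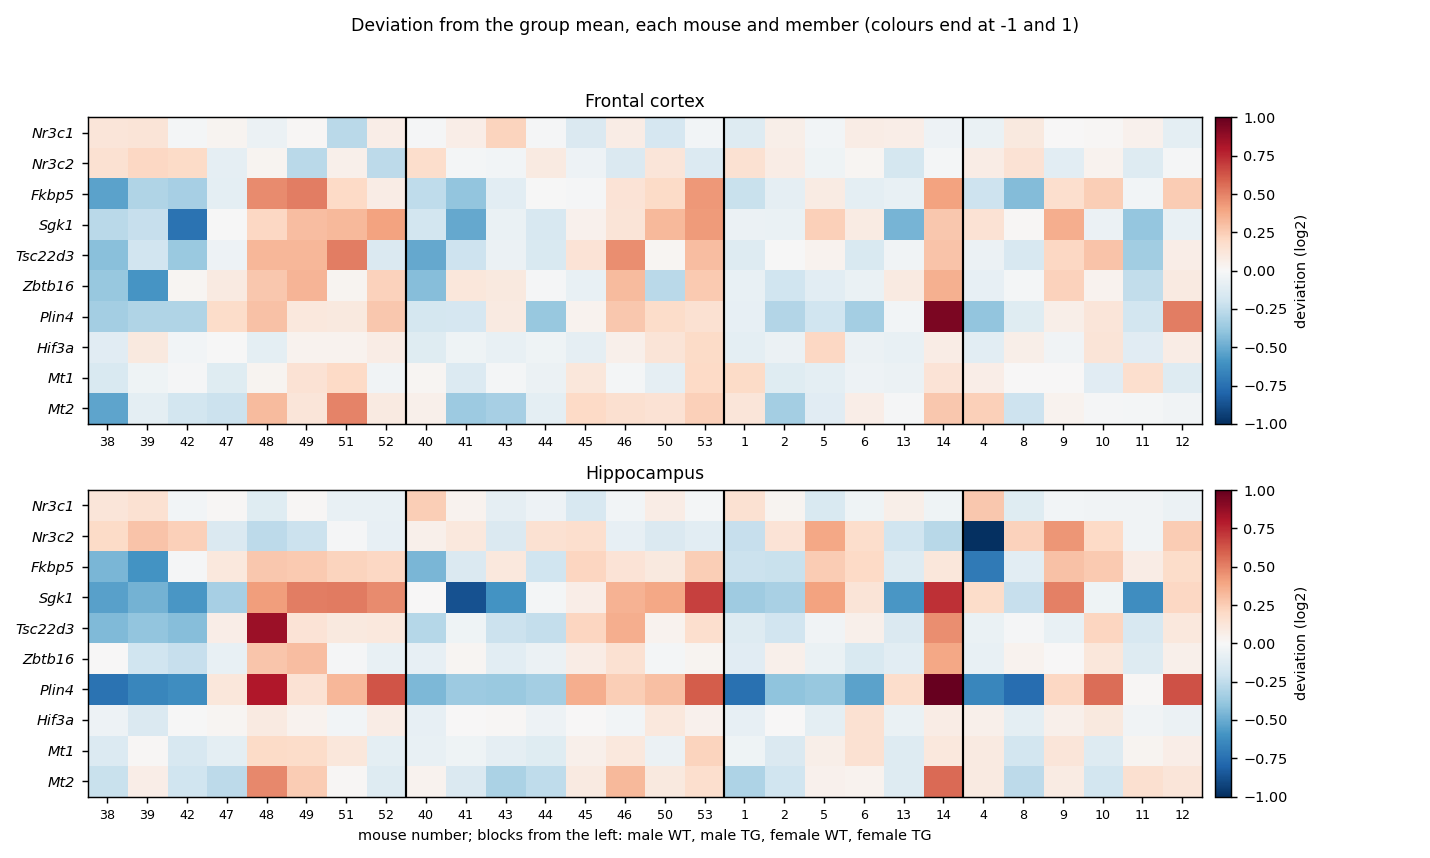
Deviation from the group mean (log2, colour scale ending at -1 and 1) of each member (rows) in each of 28 mice (columns, by mouse number within group), frontal cortex above and hippocampus below. Males 38, 39 and 42 are blue and female 14 is red for Fkbp5, Sgk1, Tsc22d3 and Plin4 in most cells of both panels, while Nr3c1 and Hif3a stay pale.

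Within a region the response genes varied together. Over the 10 pairs among Fkbp5, Sgk1, Tsc22d3, Zbtb16 and Plin4, r ran from 0.40 to 0.80 (median 0.64) over 28 frontal cortex arrays and from 0.40 to 0.76 (median 0.62) over 30 hippocampus arrays. Fkbp5 and Tsc22d3 were the closest pair in the frontal cortex (0.80), and Tsc22d3 and Zbtb16 in the hippocampus (0.76). Mt1 and Mt2 followed each other at 0.69 and 0.80. The r within a region are given here without values over all genes, so how unusual they are was not tested. The receptors mostly ran against the response genes, and Nr3c1 gave negative r with all 5 in each region. In the frontal cortex its r ran from -0.40 with Fkbp5 to -0.07 with Zbtb16. Hippocampal values of Nr3c1 ran from -0.80 with Fkbp5 (-0.73 without mouse 4) to -0.30 with Zbtb16. Nr3c2 was negative with all 5 in the frontal cortex, from -0.67 with Zbtb16 to -0.37 with Sgk1. In the hippocampus it ran from -0.26 to 0.27, the one positive value being that with Fkbp5, which was -0.27 without mouse 4; without that array all 5 were negative, down to -0.496 with Tsc22d3 and -0.495 with Plin4.

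The genes outside the 10 whose deviations were most like a member's were listed by r within each region. For Sgk1 this was Nfkbia in both regions (0.79 in the frontal cortex and 0.91 in the hippocampus), which encodes an inhibitor of NF-kappa-B and is itself induced by glucocorticoids. Tsc22d3 was most like Fmo2 in the frontal cortex (0.80) and Sult1a1 in the hippocampus (0.79), and Gpt2 was among the 3 nearest genes of Tsc22d3 in both regions (0.79 in each). Fkbp5 was nearest to Smim3 in the frontal cortex (0.86) and Ube2g2 in the hippocampus (0.87). Plin4 was nearest to Pkp2 in the frontal cortex (0.75) and Sult1a1 in the hippocampus (0.84), and Zbtb16 to Zmynd8 (0.84) and Cdkn1a (0.80). Hippocampal Nr3c2 was closest to Fam131a (0.94), the glutamate receptor subunit Gria1 (0.93) and the calcineurin subunit Ppp3ca (0.92), values that were 0.86, 0.83 and 0.78 without mouse 4. Nr3c1 was nearest to Adgrl2 (0.80) and Slc30a4 (0.84), Mt1 to Chd7 (0.74) and Thbs4 (0.76), Mt2 to Timp3 (0.77) and Fam107a (0.76), and dim Hif3a to Hoxc8 (0.65) and Fut7 (0.69). The hippocampal values of Fkbp5 with Ube2g2 and of Nr3c1 with Slc30a4 are not given without mouse 4. That array lay far from its group for Fkbp5 and Nr3c1 as well.

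A wider list of 25 measured genes that glucocorticoids are known to induce showed part of the same sharing between regions. Of these, 7 reached a between-region r of 0.5, as did 4.97% of all named genes. They were led by Nfkbia (0.86), Sult1a1 (0.72) and Klf9 (0.71), a transcription factor that responds rapidly to glucocorticoids. The list was chosen with earlier results of these data known, and Nfkbia and Sult1a1 are among the nearest genes named above. It is therefore no independent check of the members. The list median was 0.37, against 0.10 over all genes. All 9 microglia markers also reached 0.5, while 4 of 11 astrocyte markers and 0 of 13 choroid plexus markers did. The list of 15 clock genes had 5 at or above 0.5 and a median of 0.41. Astrocyte and oligodendrocyte markers had medians of 0.45 and 0.39, so a median of this size was not particular to the induced genes. With genotype the wider list moved both ways in the frontal cortex: 5 rose and 5 fell in males, and 6 rose and 2 fell in females. The shares over all genes to set beside these and the following counts are those given above, 8.8% higher and 11.7% lower in male and 8.75% and 10.2% in female frontal cortex. The list medians were 0.030 and 0.15, against -0.02 and -0.01 over all genes. Cebpd, a transcription factor of the acute phase response, rose by 1.301 (SE 0.15, adjusted p = 1.42e-07) in males and 1.57 (SE 0.17, adjusted p = 6.09e-08) in females. Dusp1, a phosphatase that inactivates MAP kinases and an immediate early gene, fell in all 4 comparisons, by 0.80 and 0.63 in male and female frontal cortex and by 0.68 and 0.72 in the hippocampus, and was the only list gene to pass there. Hippocampal Sult1a1 in females differed by 0.72 (SE 0.22, adjusted p = 0.0695).

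Of 15 measured genes that handle the steroid or hold its receptor, 2 rose and 6 fell in male frontal cortex, 1 rose and 3 fell in female frontal cortex, and none passed in the hippocampus of either sex, where Dnajb1 in males came closest (-0.34, adjusted p = 0.0574). The list median was -0.12 in male and 0.057 in female frontal cortex. In males Dnajb1, an Hsp40 cochaperone, fell by 0.57 (SE 0.10), Stip1, which links Hsp70 to Hsp90, by 0.36 (SE 0.08), and Fkbp4, the chaperone partner that competes with Fkbp5, by 0.36 (SE 0.09). Stip1 fell by 0.29 (SE 0.09) in females too, where Abcb1b, a steroid-exporting pump, rose by 0.48 (SE 0.11). Of 10 receptor coregulators 3 fell in female frontal cortex (Med14, Nrip1 and Hdac2, by 0.21, 0.21 and 0.19) and none passed in the other 3 comparisons; the list medians in frontal cortex were -0.077 in males and -0.081 in females.

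Among 11 corticotropin-releasing hormone and related peptide genes, Crhbp, the binding protein of the hormone, fell by 0.48 (SE 0.10) in male frontal cortex and by 0.53 (SE 0.13, adjusted p = 0.0366) in male hippocampus. Crh itself fell by 0.56 (SE 0.16, adjusted p = 0.0101) in female frontal cortex, and none passed in female hippocampus. With 1 of 11 called in each frontal cortex comparison, the list lay below the share of all genes (20.5% and 18.9%), and its medians were -0.017 and -0.061. Of 11 metal homeostasis genes, 4 rose and 1 fell in male frontal cortex and 3 rose in female frontal cortex, with medians of 0.16 and 0.11. Mt3, the metallothionein of the brain, rose by 0.33 (SE 0.06) and 0.25 (SE 0.07) there. Only Cp, a copper oxidase, passed in male hippocampus (0.33, SE 0.08, adjusted p = 0.0455), and none passed in female hippocampus. Of 15 clock genes, 4 fell in male and 3 in female frontal cortex, among them Cry2 by 0.25 and 0.29 and Arntl by 0.42 and 0.35, with list medians of -0.12 and -0.15, and none passed in the hippocampus.

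Holding the mean of Fkbp5, Sgk1, Tsc22d3, Zbtb16 and Plin4 fixed as a covariate left the frontal cortex calls of Mt1 and Mt2 in place in both sexes. It ended the call of Nr3c1 in female frontal cortex (-0.17, SE 0.07, adjusted p = 0.0939) and that of Mt2 in female hippocampus (0.27, SE 0.10, adjusted p = 0.207). This fit was added after the values were seen. The covariate itself moved with genotype in females, and it includes Fkbp5 and Plin4, both called higher in female frontal cortex. It ran from 6.13 to 6.58 in TG and from 5.91 to 6.49 in WT female frontal cortex. In female hippocampus it ran from 6.64 to 7.14 and from 6.23 to 7.30. Holding it fixed can therefore take out part of a genotype difference, and the fit does not decide what the lost calls depend on.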

How the data were processed

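The values analysed are the log2 expression values that the authors deposited for 58 arrays, for which the submitters' processing notes name RMA and R 3.2.2; no source used here says which chip definition grouped the probes. RNA was labelled with the GeneChip HT 3′ IVT PLUS kit, per the labels' protocols. RMA equalizes array distributions, so a change is relative to the whole array; array medians were 4.73 to 4.85. Of 17856 probe sets, 17216 have a gene symbol in GEO's platform annotation, which can be old, and 640 unnamed ones were left out.

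TG contrasts, their difference between sexes and WT females against WT males were fitted with limma 3.58.1 in R 4.3.3 over the 4 groups of a region, and contrasts between regions over all 8 groups. P-values were two-sided, adjusted over all named genes, with a threshold of 0.05 and 95% intervals. The steps were tested on simulated data. The members and gene lists were chosen with earlier results of these data known. Named genes were the members, up to 4 genes of smallest p per list and TG comparison, the 3 most alike genes per member and region, and App, Thy1 and Cst7; Ttr and the between-region examples were added after values were seen. Alternatives covered array scaling, genes tested, priors, array weights, covariates, arrays left out and the replicate block. Both regions came from each mouse, per the labels' protocols, so mouse numbers pair the samples: deviations of a mouse's 2 arrays correlated at -0.03 to 0.36 over genes (median 0.11, over 0.1 in 15 of 28 mice).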

Additional observations from a re-analysis of the deposited data

Results flagged for a closer look

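In 10 of the 80 combinations of member and group 1 array lay far from the other arrays of its group by Dixon's 95% criterion, which chance meets in about 1 of 20 groups. The female WT mouse 14 gave 5 of them. Its Plin4 was 4.59 in the frontal cortex (next array 3.62) and 5.94 in the hippocampus (next 4.23), and its hippocampal Tsc22d3 was 5.26 (next 4.84), Zbtb16 7.84 (next 7.51) and Mt2 10.90 (next 10.38). The hippocampus of female TG mouse 4 gave 3, with Nr3c1 at 6.59 (next 6.29), Nr3c2 at 8.07 (next 9.12) and Fkbp5 at 6.44 (next 7.04). In WT males, mouse 51 had the lowest frontal cortex Nr3c1, 6.33 (next 6.54), and mouse 48 the highest hippocampal Tsc22d3, 5.82 (next 5.11). No member's TG effect differed between sexes after adjustment.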

How the results depend on the processing

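Leaving single arrays out of consideration, counts of called members stayed within 1.5 times of the reported count in 132 pairs of comparison and setting; the exceptions follow. In female hippocampus (1 called) the count was 0 with array weights, with only the groups of the contrast and with mouse number as a covariate, 2 without mouse 7 and 3 over all 8 groups. For WT females against WT males in the hippocampus (0 called) it was 1 with array weights, without mouse 4 and over all 8 groups. The region difference of the TG effect (0 called) was 1 in males and 1 in females with the mouse as a fixed replicate block. With the astrocyte covariate, added after seeing the data, male and female frontal cortex (2 and 5 called) had 0 and 0. Leaving out each array gave 2 to 3 called members in male and 4 to 6 in female frontal cortex, 0 to 2 in female hippocampus, 0 to 1 for WT females against WT males in the hippocampus, 6 to 7 for hippocampus against frontal cortex in WT males and 5 to 7 in WT females.

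All differences that changed sign were uncalled. Equal array medians gave -0.028 for Fkbp5, -0.035 for Hif3a (male frontal cortex), -0.044 for Zbtb16 (female frontal cortex), -0.025 for Plin4 (male hippocampus) and -0.0196 for Hif3a between regions in WT males; quantile normalization gave -0.015 for Plin4 in male hippocampus. The choroid plexus covariate gave -0.0107 for Fkbp5 (male frontal cortex), -0.0074 for Zbtb16 (female frontal cortex), and -0.20 for Sgk1 and -0.10 for Plin4 in male hippocampus. Mouse number gave -0.065 for Zbtb16 (female frontal cortex) and 0.0067 for Fkbp5 (male hippocampus). The astrocyte covariate gave 0.022 for Nr3c1 and -0.0048 for Fkbp5 (male frontal cortex), -0.0202 for Zbtb16 (female frontal cortex), and 0.0505 for Nr3c2, 0.023 for Fkbp5 and -0.017 for Plin4 in male hippocampus. With single arrays left out, male frontal cortex gave -0.054 to 0.095 for Fkbp5 and -0.013 to 0.033 for Hif3a, and female frontal cortex -0.038 to 0.078 for Zbtb16. Male hippocampus gave -0.0599 to 0.018 for Nr3c2, -0.10 to 0.0505 for Fkbp5, -0.032 to 0.0014 for Hif3a and -0.092 to 0.13 for Plin4. Between regions, WT males gave -0.012 to 0.18 for Tsc22d3 and -0.0096 to 0.027 for Hif3a, and WT females -0.035 to 0.10 for Tsc22d3, -0.018 to 0.049 for Hif3a and -0.029 to 0.49 for Plin4. The cause was not tested. Signal near background limits Hif3a and Plin4.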
